A study of Homo sapiens with 4 samples.

Results

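Glycolysis and the response to low oxygen were followed through 34 genes in LNCaP prostate cancer cells and their androgen-deprived subline LTAD. The genes were taken by symbol, with no threshold on a level or difference. They comprise 15 enzymes of glycolysis and lactate formation, 17 other genes taken as targets of hypoxia-inducible factor (HIF), and the HIF subunit genes HIF1A and ARNT. Of these 34 genes, 31 were read by a probe set that names 1 gene, out of 18417 genes read in all. No probe set was named SLC16A3 or CA9 here, and all 5 probe sets of PGAM1 also name its close copy PGAM4.

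LNCaP is an established androgen-responsive prostate cancer line, and LTAD was derived from it by long androgen deprivation. There was 1 array for each of 4 groups. LNCaP cells had spent 24 h in hormone-free medium with 2.5% stripped serum, whereas untransfected LTAD, LTAD given a control siRNA (siControl) and LTAD given an siRNA against PSF (siPSF) grew in medium with 10% stripped serum. PSF is the RNA-binding protein encoded by SFPQ. The labels name no hypoxia treatment, and with no replicate in any group no test, error or p-value is given and every difference is between 1 array and another.

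Glycolysis splits glucose into pyruvate in the cytosol, and lactate dehydrogenase then reduces pyruvate to lactate. When oxygen is scarce, prolyl hydroxylases no longer mark HIF-1α for destruction by the von Hippel-Lindau ubiquitin ligase, and the subunit pairs with ARNT to activate genes whose control regions hold the hypoxia response element. These genes include most glycolytic enzymes, the glucose transporter GLUT1, angiogenic factors, mitophagy receptors and collagen-modifying enzymes. In many tumour lines the same genes are also active in normal oxygen, through growth signalling and MYC.

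Levels below are log2 values quantile normalized over the 4 arrays, because the medians of the deposited columns ran from 5.98 to 7.20 and most genes shifted with them. A gene was kept if 1 or more arrays read it at 7.23 or above, the median over all genes and arrays. This left 10117 genes, among them 29 of the 31 members, while PFKFB4 and ADM stayed under that value in all 4 arrays. A level under 7.23 is not shown to be above background. SFPQ, the siRNA target, read 10.83 in LNCaP, 10.82 in untransfected LTAD, 11.23 with siControl and 9.87 with siPSF, 2.58-fold below siControl. Of the luminal prostate markers, 5 of 9 were read, with KLK3 between 7.11 with siPSF and 12.89 in LNCaP, KRT8 between 11.84 and 12.49 and HOXB13 between 10.70 and 10.93. Of 13 markers of basal, stromal, endothelial, immune and erythroid cells that were read, 3 were kept and none exceeded 7.99.

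**Figure D1:**
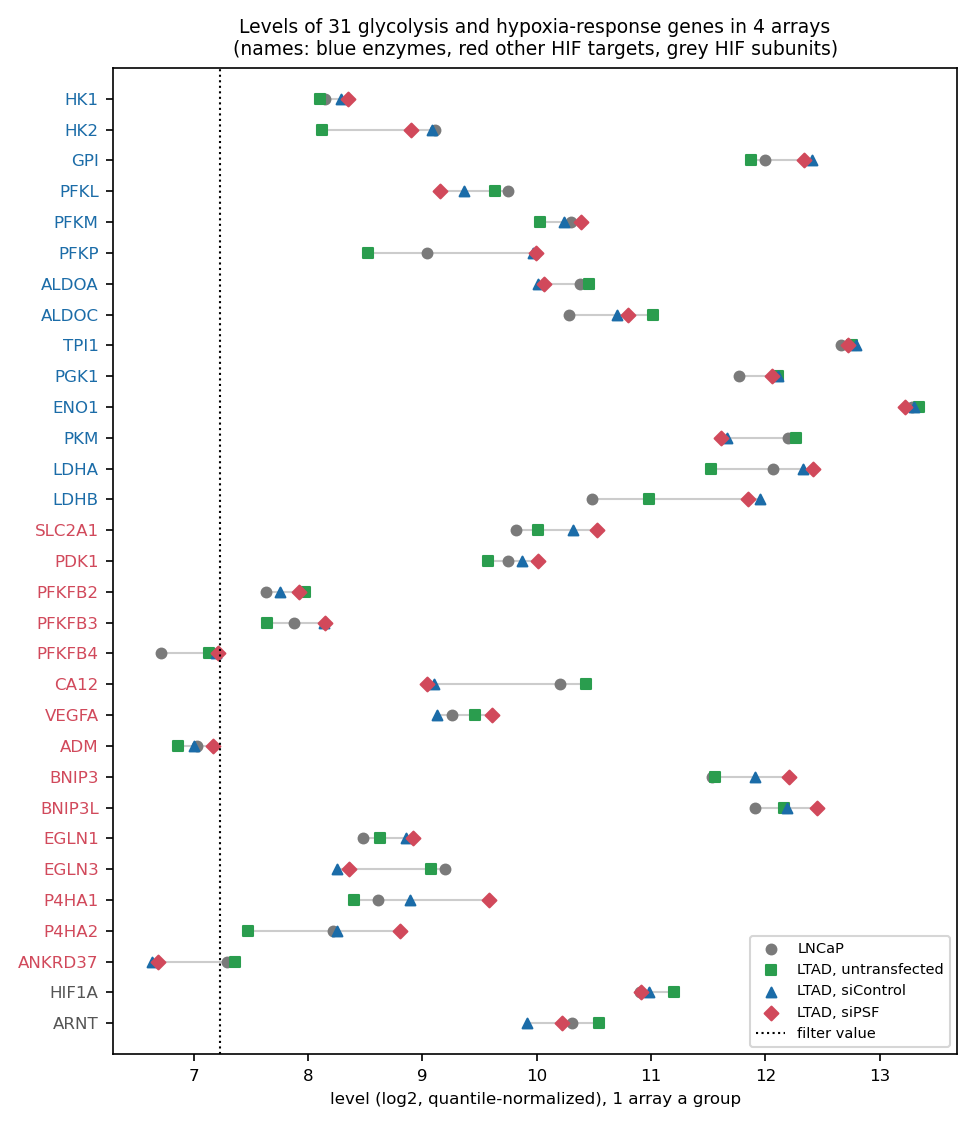
Quantile-normalized log2 level (horizontal axis) of each of the 31 genes read, with 1 point for each of the 4 arrays and a grey line over their range; the dotted line is the filter value of 7.23. P4HA1, P4HA2 and BNIP3 have their siPSF point to the right of the other 3, whereas TPI1 and ENO1 span 0.12 over the 4 arrays. Positions of different genes on the axis are not comparable, since each gene has its own probes.

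Promoter sequences were read for the members to see what the groups share next to their start sites. RefSeq windows of GRCh38.p14, from 250 bases before to 50 after an annotated start, were found for 31 of the 34 genes, with 58 windows in all. The motifs searched were ACGTG and GCGTG, the core of the hypoxia response element, on both strands; where the letters CACGTG stand, ACGTG matches on each strand and the matches overlap. At least 1 match was held by 21 of 35 enzyme windows (60%), 15 of 20 windows of other targets (75%) and 48.4% of all 35116 windows. Counted by gene, with a match in any of a gene's windows, the order of the 2 groups turned: 14 of 15 enzymes (93.3%) and 12 of 14 other targets (85.7%) held one, and 52.4% of all genes. The enzymes had more windows a gene, up to 7 for HK1 and PFKM. For ACGTG alone the shares of windows were 37.1%, 40% and 21.4%. Median GC content was 66% and 68.8% for the windows of the 2 groups and 58.7% for all windows, and its part in these shares was not tested.

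**Figure D2:**
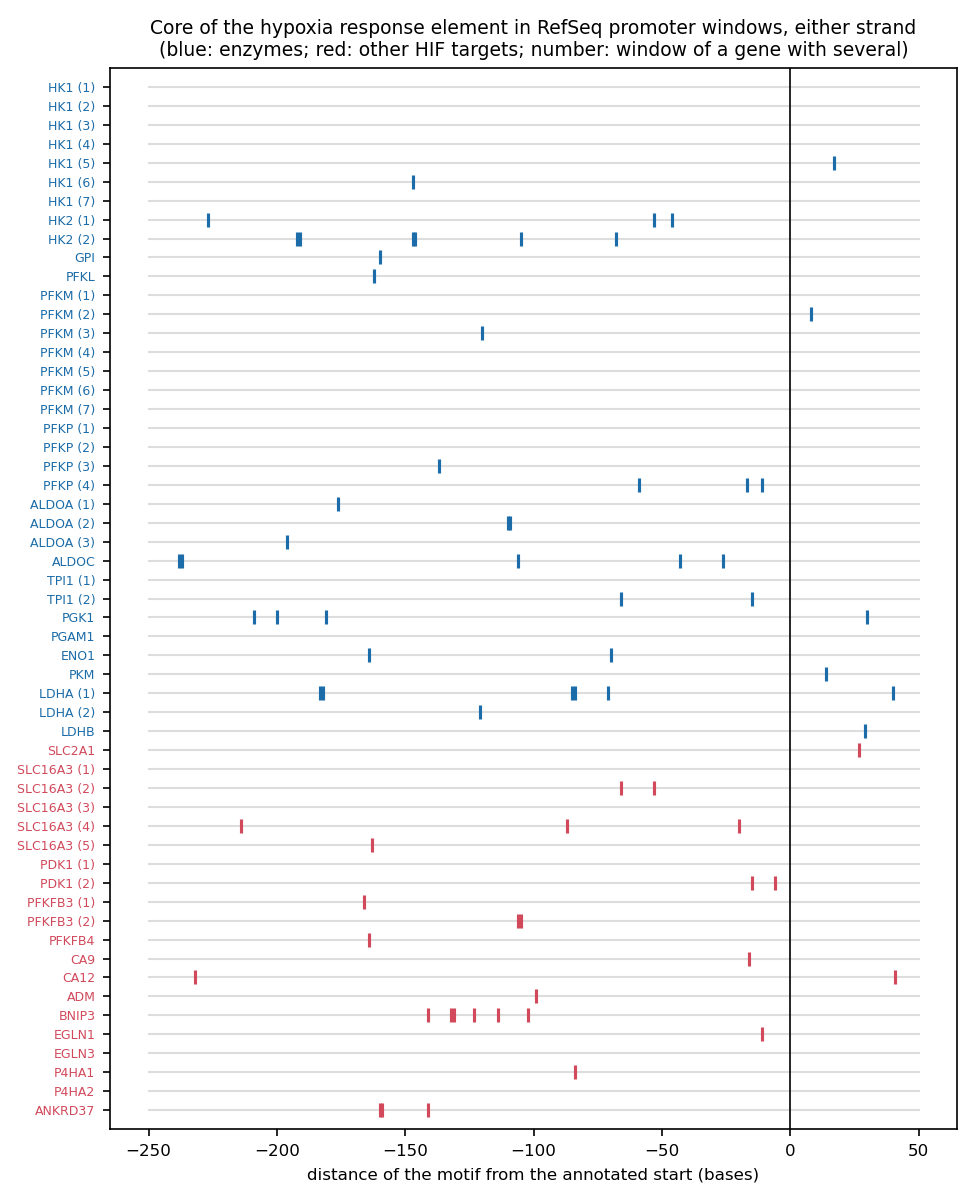
Position of each motif match as distance in bases from the annotated start (horizontal axis) in the 35 windows of the enzymes and 20 of the other targets; a number marks 1 of several windows of a gene. The BNIP3 window holds a run of matches upstream of the start, and those of EGLN3, P4HA2 and PGAM1 hold none.

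The following upstream stretches belong to targets that read highest with siPSF (P4HA1, BNIP3), to members that differed between LTAD and LNCaP arrays (CA12, ALDOC, LDHB) and to PGK1, an enzyme with several matches that hardly differed between siPSF and siControl. Each runs 5′ to 3′ on the strand of the gene over the 250 bases before its start, and capitals mark ACGTG or GCGTG on either strand.

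P4HA1, chr10:73096867-73097116, minus strand: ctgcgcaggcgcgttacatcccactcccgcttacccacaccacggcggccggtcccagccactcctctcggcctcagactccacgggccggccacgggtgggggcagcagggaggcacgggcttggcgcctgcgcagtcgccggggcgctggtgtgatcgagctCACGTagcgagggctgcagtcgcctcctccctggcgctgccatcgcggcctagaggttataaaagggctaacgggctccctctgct
BNIP3, chr10:131981924-131982173, minus strand: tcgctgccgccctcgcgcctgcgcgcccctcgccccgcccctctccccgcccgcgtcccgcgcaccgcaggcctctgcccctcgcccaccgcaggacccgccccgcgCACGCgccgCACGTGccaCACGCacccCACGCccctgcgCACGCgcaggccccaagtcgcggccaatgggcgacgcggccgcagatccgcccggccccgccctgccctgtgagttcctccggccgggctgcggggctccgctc
CA12, chr15:63381847-63382096, minus strand: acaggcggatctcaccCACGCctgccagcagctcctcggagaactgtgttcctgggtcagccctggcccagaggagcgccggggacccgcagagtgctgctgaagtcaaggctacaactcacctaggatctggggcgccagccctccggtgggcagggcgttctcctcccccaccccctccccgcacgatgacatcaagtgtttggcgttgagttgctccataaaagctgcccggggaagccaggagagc
PGK1, chrX:78103998-78104247, plus strand: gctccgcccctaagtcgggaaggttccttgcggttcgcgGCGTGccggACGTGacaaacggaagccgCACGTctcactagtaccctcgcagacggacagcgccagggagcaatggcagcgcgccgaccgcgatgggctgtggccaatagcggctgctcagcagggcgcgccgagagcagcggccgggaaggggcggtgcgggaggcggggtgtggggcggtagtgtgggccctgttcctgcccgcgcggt
ALDOC, chr17:28576896-28577145, minus strand: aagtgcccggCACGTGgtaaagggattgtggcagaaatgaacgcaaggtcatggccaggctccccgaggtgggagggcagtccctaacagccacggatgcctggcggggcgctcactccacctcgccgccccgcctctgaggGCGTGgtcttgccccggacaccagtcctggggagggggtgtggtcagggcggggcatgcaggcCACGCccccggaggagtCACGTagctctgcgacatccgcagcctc
LDHB, chr12:21657843-21658092, minus strand: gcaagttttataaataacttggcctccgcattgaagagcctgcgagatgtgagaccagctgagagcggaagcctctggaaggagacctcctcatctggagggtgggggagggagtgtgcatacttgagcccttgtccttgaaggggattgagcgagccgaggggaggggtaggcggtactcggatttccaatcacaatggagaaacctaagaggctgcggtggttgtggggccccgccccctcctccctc

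In the siPSF array the HIF targets outside the glycolytic chain read higher than in the siControl array, mostly by small amounts, and the enzymes of the chain had no common direction. Between siPSF and siControl LTAD, 12 of 13 kept targets were above 0, with a median difference of 0.17 and a range from -0.06 for CA12 to 0.69 for P4HA1. Among the 14 kept enzymes 6 were above 0 and 8 below, with a median of -0.05 and a range from -0.21 for PFKL to 0.16 for PFKM. Over all kept genes 46.9% were above 0 and the median was -0.02. Above the upper quartile of all kept genes, 0.12, lay 8 of the 13 targets and 1 of the 14 enzymes. In bulk RNA, fewer cells with a transcript and less of it in each cell cannot be told apart. None of the 29 members reached 2-fold in either direction, where 0.811% of kept genes did. At 1.5-fold, P4HA1 was the only member called, 1 of 29 (3.45%), where 4.03% of kept genes were, so the share of members called was near that of all genes. Relative to the median of all kept genes, no member changed sign in this comparison between quantile normalization, the deposited values, median centring and 75th percentile scaling.

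**Figure D3:**
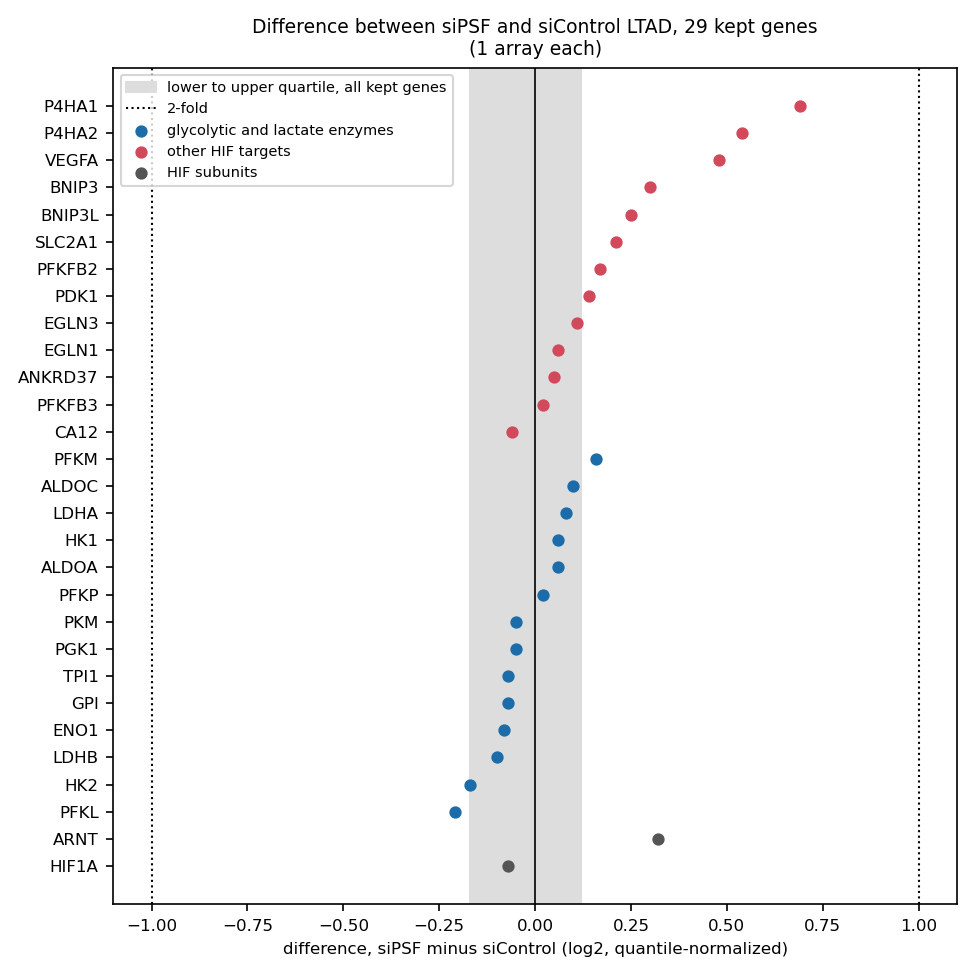
Log2 difference between the siPSF and siControl arrays (horizontal axis) for the 29 kept members, ordered by size within each group; the grey band runs from the lower quartile (-0.17) to the upper quartile (0.12) of all kept genes and dotted lines mark 2-fold. The other HIF targets reach from -0.06 to 0.69, and 11 of the 14 enzymes lie inside the band, with HK2 (-0.17) at its lower edge.

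The largest differences between siPSF and siControl among the targets were those of the collagen prolyl 4-hydroxylases, 0.69 for P4HA1 and 0.54 for P4HA2. P4HA1 and P4HA2 encode catalytic subunits that hydroxylate proline in newly made collagen in the endoplasmic reticulum, a step needed for a stable triple helix. P4HA1 read 8.61 in LNCaP, 8.40 in untransfected LTAD, 8.89 with siControl and 9.58 with siPSF. The siPSF array was thus the highest of the 4, 1.61-fold above siControl and 2.25-fold above untransfected LTAD. P4HA2 read 8.22, 7.47, 8.25 and 8.80 in the same order. Here too siPSF was highest, 1.46-fold above siControl and 2.51-fold above untransfected LTAD, which was the lowest. Relative to all kept genes, the siPSF difference from untransfected LTAD lay between 1.12 and 1.17 for P4HA1 and between 1.20 and 1.27 for P4HA2 over the 4 scalings.

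BNIP3 and BNIP3L encode outer-membrane receptors that mark mitochondria for mitophagy. BNIP3 read 11.53 in LNCaP, 11.56 in untransfected LTAD, 11.91 with siControl and 12.21 with siPSF. Its siPSF level was 1.23-fold above siControl, and the first pair of arrays lay 0.03 apart. BNIP3L read 11.91, 12.16, 12.19 and 12.45, and siPSF stood 0.25 above siControl. Its difference between siControl and untransfected LTAD depended on the scaling: relative to all kept genes it was -0.03 with quantile normalization and between 0.27 and 0.32 on the 3 other scalings. Both genes were highest with siPSF on the quantile-normalized scale.

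VEGFA, the main angiogenic growth factor under HIF control, read 9.26 in LNCaP, 9.46 in untransfected LTAD, 9.13 with siControl and 9.61 with siPSF. The siPSF reading exceeded siControl 1.40-fold but untransfected LTAD by only 0.15, because siControl was the lowest array. ADM, the gene of the vasodilator peptide adrenomedullin, stayed between 6.86 and 7.17, under the filter value everywhere, and no fold is given.

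SLC2A1 encodes GLUT1, which brings glucose into the cell. It read 9.82 in LNCaP, 10.01 in untransfected LTAD, 10.32 with siControl and 10.53 with siPSF, with siPSF 0.21 above siControl. PDK1, the kinase that shuts pyruvate dehydrogenase and so keeps pyruvate out of the mitochondria, read 9.75, 9.57, 9.87 and 10.01. Each of these genes was highest with siPSF, at 1.16-fold and 1.10-fold above siControl.

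The PFKFB enzymes make and break fructose 2,6-bisphosphate, the activator of phosphofructokinase. PFKFB2 read 7.63 in LNCaP, 7.97 in untransfected LTAD, 7.75 with siControl and 7.92 with siPSF, and PFKFB3 read 7.88, 7.64, 8.14 and 8.15. For PFKFB3 siPSF and siControl differed by 0.02. PFKFB4 ran from 6.71 to 7.21, under the filter value in every array.

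The oxygen sensors EGLN1 and EGLN3 encode the prolyl hydroxylases PHD2 and PHD3, which are themselves induced by HIF and so close a feedback loop. EGLN1 read 8.48 in LNCaP, 8.63 in untransfected LTAD, 8.86 with siControl and 8.92 with siPSF. EGLN3 read 9.20, 9.07, 8.25 and 8.36, and both transfected arrays were under both untransfected ones. The siPSF difference from siControl was 0.06 for EGLN1 and 0.11 for EGLN3.

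CA12, a membrane carbonic anhydrase that helps to control pH at the cell surface, read 10.20 in LNCaP, 10.43 in untransfected LTAD, 9.10 with siControl and 9.04 with siPSF. It was the only kept target below 0 between siPSF and siControl, at -0.06. ANKRD37, a small ankyrin-repeat gene used as a hypoxia marker, read 7.29, 7.36, 6.63 and 6.69. Its levels in the 2 transfected arrays were under the filter value, so it was kept only through the untransfected ones.

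The HIF subunits were both highest in untransfected LTAD, and between siPSF and siControl their differences had opposite signs. HIF1A encodes the oxygen-regulated subunit and is controlled mainly at the protein level. It read 10.90 in LNCaP, 11.20 in untransfected LTAD, 10.98 with siControl and 10.91 with siPSF, a difference of -0.07 between the last 2. ARNT, the constitutive partner, read 10.31, 10.54, 9.91 and 10.22, and siPSF was 0.32 above siControl and 0.32 below untransfected LTAD.

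The enzymes of the chain are given in the order of their reactions. Hexokinases HK1 and HK2 trap glucose as glucose 6-phosphate. HK1 read 8.15 in LNCaP, 8.10 in untransfected LTAD, 8.29 with siControl and 8.35 with siPSF. HK2, the inducible form, read 9.11, 8.12, 9.08 and 8.90, so untransfected LTAD stood apart from the other 3 arrays. GPI, which isomerizes glucose 6-phosphate, read 12.00, 11.87, 12.41 and 12.34.

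Phosphofructokinase, the committed step, has 3 subunit genes, and each had a different array order. PFKL, the liver-type subunit, read 9.75 in LNCaP, 9.63 in untransfected LTAD, 9.36 with siControl and 9.15 with siPSF. PFKM, the muscle type, read 10.30, 10.03, 10.24 and 10.39. PFKP, the platelet type, read 9.04, 8.52, 9.97 and 9.99, with both transfected arrays at least 0.92 above both untransfected ones. Between siPSF and siControl the differences were -0.21, 0.16 and 0.02.

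Aldolase and triose phosphate isomerase make and interconvert the triose phosphates. ALDOA read 10.38 in LNCaP, 10.46 in untransfected LTAD, 10.01 with siControl and 10.06 with siPSF, and ALDOC read 10.28, 11.02, 10.70 and 10.80. TPI1 read 12.66, 12.76, 12.79 and 12.72, a range of 0.12, and its second probe set gave a siPSF difference of -0.05 against -0.07.

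The lower part of the chain runs from PGK1 to PKM. PGK1, which makes the first ATP of the payoff phase, read 11.77 in LNCaP, 12.11 in untransfected LTAD, 12.11 with siControl and 12.06 with siPSF. PGAM1 is the phosphoglycerate mutase. The 5 probe sets it shares with PGAM4 lay between 11.46 and 11.93 over all arrays, with siPSF differences from -0.08 to -0.05. ENO1, the enolase, read 13.28, 13.34, 13.30 and 13.22 in the array order used for PGK1. PKM, pyruvate kinase, read 12.20, 12.27, 11.66 and 11.61, lower in both transfected arrays. Several of these genes have processed pseudogenes, and whether their probe sets also read such copies was not tested.

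LDHA and LDHB encode the subunits of lactate dehydrogenase, of which the A form favours lactate formation. LDHA read 12.07 in LNCaP, 11.52 in untransfected LTAD, 12.33 with siControl and 12.42 with siPSF. LDHB read 10.48, 10.98, 11.95 and 11.85. The siPSF difference from siControl was 0.08 for LDHA and -0.10 for LDHB, and both subunits were highest in the transfected arrays.

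Across all 4 arrays, siPSF held the highest level of 9 of the 13 kept other targets (69.2%) and of 4 of the 14 enzymes (28.6%), where it held that of 24.6% of all kept genes. Without the filter the targets' count was 11 of 15. The share of all kept genes with their highest level was 20.7% in LNCaP, 29.0% in untransfected LTAD and 25.6% with siControl. No kept target was highest with siControl. That largely repeats the difference given above: 12 of the 13 targets read higher with siPSF, so only CA12 could have been highest with siControl. With median centring and with 75th percentile scaling the count of targets highest with siPSF was again 9, of 14 and of 13 kept. On the deposited values it was 1 of 15, and there siPSF was highest for 1.31% of all kept genes, since the transfected columns lay below the untransfected ones as a whole.

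**Figure D4:**
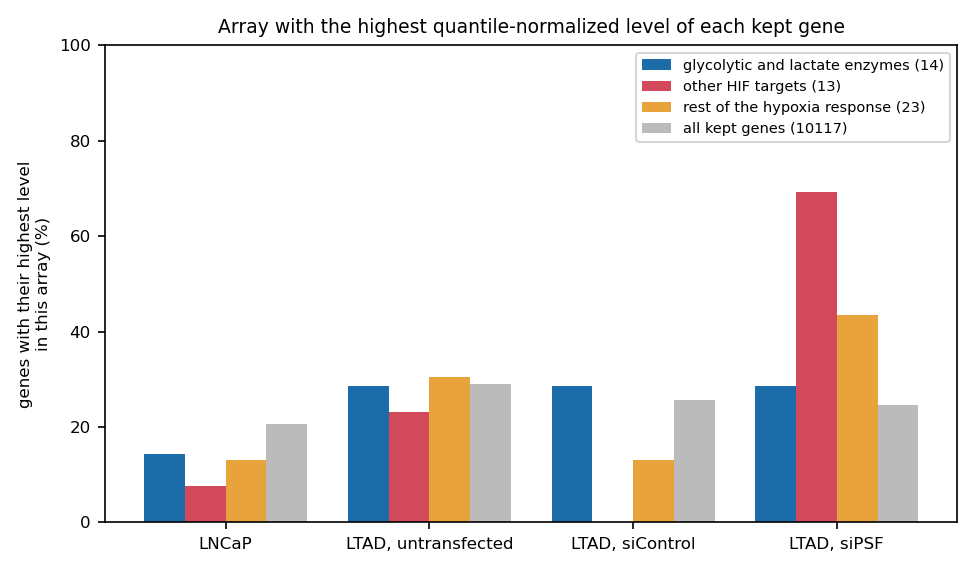
Percentage of genes (vertical axis, from 0) whose highest quantile-normalized level was in the array named on the horizontal axis, for the kept enzymes, the kept other HIF targets, the wider hypoxia list and all kept genes. The bar for other HIF targets reaches 69.2% with siPSF against 24.6% for all kept genes and is at 0 with siControl. That 0 is no separate result, since 12 of the 13 kept targets read higher with siPSF than with siControl.

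With untransfected LTAD in place of siControl, 9 of 13 targets and 7 of 14 enzymes were above 0 in the siPSF array, where 53.9% of kept genes were, and the medians were 0.29 and 0.11 against 0.05 for all kept genes. Now 3 members were at least 2-fold higher (P4HA2 at 1.33, P4HA1 at 1.17 and PFKP at 1.47), with 5.40% of kept genes, and CA12 was lower at -1.39, with 5.20%. PFKP and CA12 were at like levels in siControl, whereas P4HA1 and P4HA2 read lower there than with siPSF. For P4HA1 and P4HA2, siControl itself was 0.49 and 0.78 above untransfected LTAD. The siPSF array is common to its differences from siControl and from untransfected LTAD, so they are given side by side. TPI1, PGK1 and ENO1 changed sign with the scaling against untransfected LTAD, relative to all kept genes, and so did PFKFB4, which was not kept.

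The wider lists held genes of the same pathways that are no members. Of 23 kept further hypoxia genes, 17 were above 0 between siPSF and siControl, with a median of 0.11, and none reached 2-fold. With untransfected LTAD as the control 13 of 23 (56.5%) were above 0, near the 53.9% of all kept genes, and the median was 0.08. DDIT4, an inhibitor of the mTOR pathway induced by hypoxia and stress, read 9.12 in LNCaP, 8.01 in untransfected LTAD, 9.77 with siControl and 10.68 with siPSF. NDRG1, a stress gene induced by hypoxia and by androgen, read 9.96, 10.50, 9.78 and 10.57, so siPSF was 0.79 above siControl but 0.07 above untransfected LTAD. These 2 genes were the only kept ones of this list at 1.5-fold or more in either direction between siPSF and siControl, and they are named after their values were seen.

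Of 16 kept further genes of glycolysis and the pentose phosphate pathway, 6 were above 0 and 10 below, with a median of -0.07. GAPDH, the enzyme between TPI1 and PGK1, read 13.65, 13.86, 13.77 and 13.78, a siPSF difference of 0.01. ENO2, the neuronal enolase, was highest at 0.85 and the only gene of this list at 1.5-fold. PDP1 followed at 0.30 and PGLS at 0.26. ENO2 read 9.01 in LNCaP, 10.29 in untransfected LTAD, 9.67 with siControl and 10.52 with siPSF, which was 0.23 above untransfected LTAD. The regulators of HIF (14 kept, 9 above 0) had a median of 0.05, with VHL, the ubiquitin ligase subunit, at 0.03.

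Gene length was set beside the siPSF difference. Of the kept genes, the longest 20% had a genomic span over 86.8 kb and a median siPSF difference of -0.09, against 0.00 for the rest. Above 0 were 739 of these 2022 long genes and 3998 of the 8088 others, and 65 and 8 were at least 2-fold lower. Only 4 members were that long, HK1 (132 kb), PDK1 (169 kb), PFKFB3 (182 kb) and P4HA1 (89.7 kb), and all 4 were above 0, at 0.06, 0.14, 0.02 and 0.69. Of the 25 shorter kept members, 15 were above 0. In the wider hypoxia list KDM4C, a histone demethylase gene of 455 kb, was lowest at -0.49. GBE1, the glycogen branching enzyme gene of 272 kb, was at -0.47, but KDM4B, of 184 kb, was at 0.07. Of the HIF regulators over 86.8 kb, CREBBP (156 kb), CUL2 (118 kb) and EP300 (87.5 kb) were at 0.21, 0.04 and 0.27. LIMD1 (91.6 kb) was at -0.29.

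The subline was next set against its parent, to see whether it differs in glycolytic or hypoxia genes. Between untransfected LTAD and LNCaP no member reached 2-fold, where 5.63% of kept genes did, and 3 of 29 at 1.5-fold (10.3%), where 15.7% were. Of the enzymes, 7 of 14 were above 0 (median 0.01), and of the other targets 8 of 13 (median 0.07), with 50.5% over all kept genes. HK2 came nearest to 2-fold, 1.98-fold below LNCaP at -0.99, and read -1.06 with median centring. P4HA2 was 1.68-fold lower and ALDOC 1.67-fold higher. The direction of ENO1, PKM, TPI1 and BNIP3 in this comparison depended on the scaling, and each was within 0.10 of the median of all genes. Larger differences were found in the lists of further hypoxia genes and of further glycolysis and pentose phosphate genes. None of the 14 kept HIF regulators reached 1.5-fold. Of the further hypoxia genes, 8 of 23 (34.8%) were at 1.5-fold, with CITED2 2-fold higher and DDIT4 and TMEM45B 2-fold lower. TMEM45B, a transmembrane protein gene, read 8.73 in LNCaP. It read 6.39, 5.55 and 5.93 in untransfected, siControl and siPSF LTAD, all under the filter value. TMEM45B was thus kept only through LNCaP, and its direction was fixed by the filter. Of the further glycolysis and pentose phosphate genes, 4 of 16 (25%) were at 1.5-fold, with ENO2 higher at 1.28 and PGD lower at -1.04. Line, serum percentage and time in stripped medium cannot be told apart here.

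SiControl LTAD, set against the same LNCaP array, gave other genes. LDHB was 2.76-fold higher and CA12 2.14-fold lower, the only members at 2-fold, where 2.68% of kept genes were higher and 2.95% lower. Which members reached 2-fold depended on the scaling. LDHB was at 0.84 on the deposited values, and with median centring CA12 was at -0.85 and PFKP at 1.15. ENO1 and PFKFB2 changed sign relative to all kept genes, ENO1 from -0.04 with quantile normalization to between 0.28 and 0.31 on the others. At 1.5-fold 5 of 29 members (17.2%) were called against 18.6% of kept genes, the others being PFKP at 0.92, EGLN3 at -0.94 and ANKRD37 at -0.65. ANKRD37 was under the filter value with siControl and kept only through the untransfected arrays, so nothing is read from its direction. Of the enzymes 9 of 14 were above 0 and of the other targets 9 of 13, with medians of 0.13 and 0.12, where 56.4% of kept genes were above 0 and their median was 0.06. LDHB (0.50 and 1.47), ALDOC (0.74 and 0.42), PGK1 (0.34 and 0.34), BNIP3L (0.25 and 0.28) and SLC2A1 (0.18 and 0.49) were higher than LNCaP in both LTAD arrays, untransfected first. PFKP (-0.53 and 0.92), LDHA (-0.55 and 0.26) and CA12 (0.24 and -1.09) had opposite signs. The LNCaP array is shared by the 2 comparisons.

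**Figure D5:**
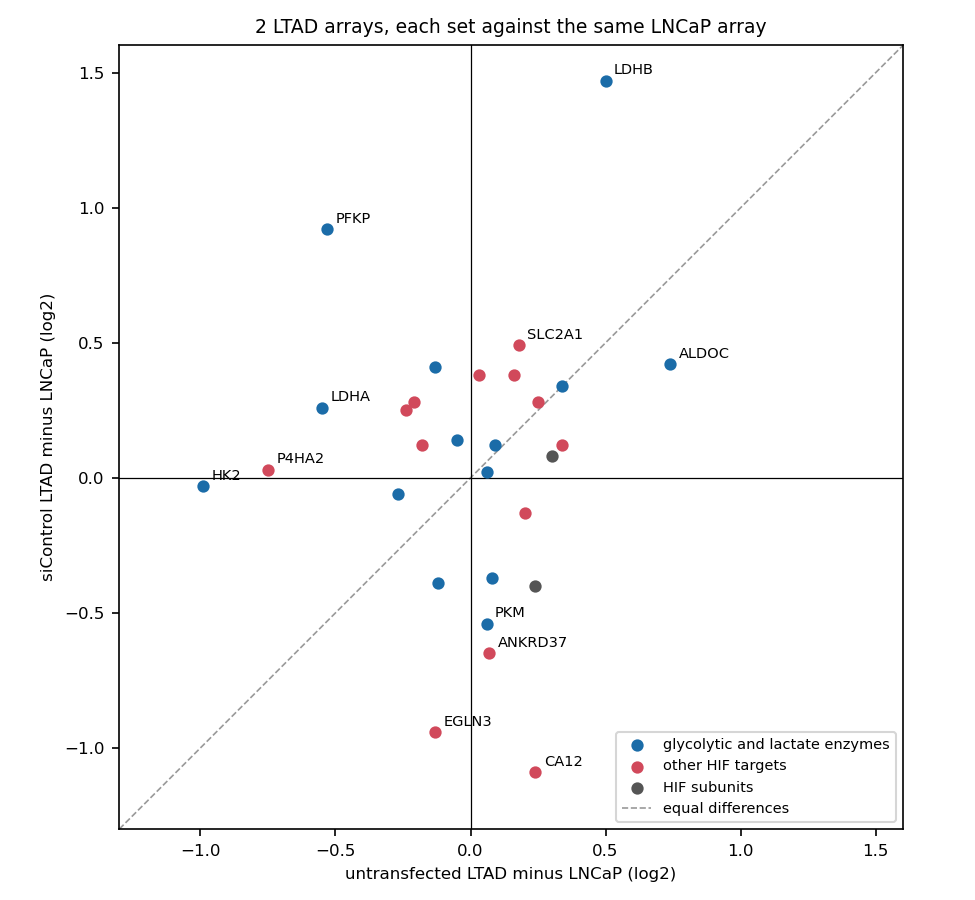
Log2 difference of untransfected LTAD (horizontal axis) and of siControl LTAD (vertical axis) from the same LNCaP array, 1 point for each of the 29 kept members; names are given where either difference is at least 0.45 in size. LDHB lies at 0.50 and 1.47, PFKP at -0.53 and 0.92, and CA12 at 0.24 and -1.09.

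With no replicate in any group, these data hold no measure of spread. The 2 control arrays of LTAD differ at least in transfection, so their differences are not those of replicates. They are set beside the siPSF differences as a description only. Between siControl and untransfected LTAD, PFKP was 2.74-fold higher and CA12 2.51-fold lower, with 6.34% of kept genes at least 2-fold higher and 4.36% lower. PFKP was at 0.57 on the deposited values and CA12 at -0.96 with median centring, both short of 2-fold. Relative to all kept genes TPI1, PGK1, ENO1, ADM and BNIP3L changed sign with the scaling, ENO1 from -0.11 with quantile normalization to between 0.33 and 0.37 on the others. At 1.5-fold 10 of 29 members (34.5%) were called, where 28.4% of kept genes were. LDHB (0.97), HK2 (0.96), LDHA (0.81) and P4HA2 (0.78) were higher with siControl, and EGLN3 (-0.81), ANKRD37 (-0.72), ARNT (-0.64) and PKM (-0.61) were lower. ANKRD37 was kept only through the untransfected arrays, so nothing is read from its direction. Medians were 0.11 for enzymes and 0.23 for other targets, with 9 of 14 and 8 of 13 above 0 and 55.3% of all kept genes. For P4HA1 the siPSF difference of 0.69 was larger than the 0.49 between the control arrays; for P4HA2 (0.54 against 0.78) it was smaller. For BNIP3 it was 0.30 against 0.35, the latter between 0.29 and 0.58 relative to all kept genes over the 4 scalings, and for VEGFA 0.48 against -0.33. Whether transfection, culture or array handling went with these differences was not tested.

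Beside the upstream stretches printed above, P4HA1, with a siPSF difference of 0.69, had 1 match, and BNIP3, at 0.30, had a cluster. PGK1 and ALDOC, with differences of -0.05 and 0.10, had several, and LDHB had none before its start. P4HA2, at 0.54, had no match in its window. These genes were chosen partly for their siPSF differences and matches, so nothing is read from setting the 2 side by side. A match is a string of letters and does not show binding.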

How the data were processed

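The authors deposited log2 levels of probe sets. Per the submitters' processing notes these came from RMA and Affymetrix Expression Console; the version and the set of arrays normalized jointly are not given in the sources used here. Whole-transcript arrays were hybridised with biotin-labelled total RNA, 1 array a group, and no detection call was used. The number of arrays limits the precision. Gene names came from the platform annotation, with symbols updated through Entrez IDs to RefSeq (GRCh38.p14; 19429 IDs matched). Of 33297 probe sets, 19460 named 1 gene, 1754 several and 12083 were unnamed here. The 33297 rows were quantile normalized over the 4 arrays, as the deposited columns were not on one scale. Each gene was read from its probe set with the highest mean, and kept if 1 or more arrays read it at 7.23 or above, the median over all genes and arrays. Differences were taken between arrays and called at 2-fold, with 1.5-fold as an alternative. The rule for naming was all members that were read, SFPQ and up to 3 genes of a wider list in each direction at 2-fold; other genes were named after their values were seen. Members and lists were chosen with earlier results of these data known. The computation was tested on simulated data (Python 3.11.15, numpy 2.4.6, pandas 2.3.3).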

Additional observations from a re-analysis of the deposited data

How the results depend on the processing

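There were 95 values under alternatives for 12 results in 4 comparisons. The results were counts of members called and the medians of enzymes and of other HIF targets, each minus the median of all kept genes. Of the values, 77 stayed within 0.10 on the log2 scale or 1.5 times the count and 18 moved. A sign change was counted only where both medians, before rounding, were at least 0.05 in size, and 0 were counted. Smaller enzyme medians did cross 0. Between siPSF and siControl, -0.03 became 0.06 with untransfected LTAD as the control. Between siControl and untransfected LTAD, 0.05 became -0.02 with the 75th percentile filter or with probe sets of several genes admitted. It became -0.05 without LDHA and LDHB. Between untransfected LTAD and LNCaP, the 0.00 ran from -0.06 on the deposited values to 0.06 with the 75th percentile filter. In the comparison of siPSF with siControl, the medians of -0.03 for enzymes and 0.19 for other targets stayed within 0.10 under every alternative run; members called went from 0 to 1 with a 1.5-fold threshold and to 4 with untransfected LTAD as the control. For untransfected LTAD against LNCaP, members called went from 0 to 1 with median centring and to 3 at 1.5-fold. For siControl LTAD against LNCaP, they went from 2 to 7 on the deposited values and to 5 at 1.5-fold; the enzyme median went from 0.07 to 0.31 on the deposited values and to 0.28 with either centring, and the median of other targets to 0.24 with the 75th percentile filter. For siControl against untransfected LTAD, members called went from 2 to 12 on the deposited values, 5 with median centring, 4 with 75th percentile scaling and 10 at 1.5-fold; the enzyme median went from 0.05 to 0.30, 0.26 and 0.27 in the same order of scalings, and that of other targets to 0.28 with 75th percentile scaling. The deposited counts include the shift of all kept genes, -0.72 against LNCaP and -0.92 against untransfected LTAD; for the other moves the cause was not tested. The median of HIF regulators changed sign to 0.06 between siControl and untransfected LTAD with the 75th percentile filter, and to -0.10 for siPSF with untransfected LTAD as the control. The median of the further hypoxia genes between siPSF and siControl, 0.12 above that of all kept genes, went to 0.29 with the 75th percentile filter and to 0.02 with untransfected LTAD as the control. No array could be left out, since each group had 1. No paired analysis was possible because each group had 1 array. Levels under 7.23, as for ADM and PFKFB4, limit what the dimmest genes can show.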

Other observations

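Genes of the pentose phosphate pathway, which draws glucose 6-phosphate off glycolysis to make NADPH and ribose, were lowest in untransfected LTAD where they differed most. PGD, 6-phosphogluconate dehydrogenase, read 11.53 in LNCaP, 10.49 in untransfected LTAD, 11.32 with siControl and 11.35 with siPSF. TKT, transketolase, read 11.30, 10.57, 11.69 and 11.45 in the same order. RPIA, the ribose 5-phosphate isomerase gene, read 6.90, 6.48, 7.40 and 7.14, with 3 of the 4 levels under the filter value. TALDO1, transaldolase, stayed between 10.85 and 11.09. Each level comes from 1 array, and these genes were chosen after their values were seen.

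CITED2, of the wider hypoxia list, competes with HIF for its coactivators. It read 10.22 in LNCaP, 11.27 in untransfected LTAD, 11.52 with siControl and 11.85 with siPSF, above the parent line in all 3 LTAD arrays. TMEM45B of the same list lay under the parent line in all 3, with all 3 LTAD levels under the filter value. It was kept only through its LNCaP level, so that direction was fixed by the filter. PLOD1, a lysyl hydroxylase of collagen, read 9.72, 10.59, 10.63 and 10.68, and its 3 LTAD levels lay within 0.09 of each other.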
